A study of Mus musculus with 21 samples.

Results

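The Dppa genes (developmental pluripotency-associated genes) named Dppa2, Dppa3, Dppa4 and Dppa5a were followed across 7 culture groups of mouse embryonic stem cells. They were taken by symbol and were 4 of the 31053 genes in each count table. All 4 genes passed the filter on low counts, and Dppa3 passed it only through the group in which it was high. Dppa1, another gene of the family, had 10 counts in all 21 libraries together and was not tested.

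The cells were E14Tg2a, a male embryonic stem cell line of 129 background that carries a GFPd2 reporter on 1 allele of Rex1. By the labels, 3 libraries each came from 2i+LIF PO, 2i+LIF LP, CH+LIF LP, LIF LP, 2i+LIF HP, CH+LIF HP and LIF HP. LIF is a cytokine that sustains self-renewal through STAT3, CH stands for the GSK3 inhibitor CHIR99021, and 2i usually names this inhibitor together with the MEK inhibitor PD0325901. All groups share 1 growth protocol, a basal medium with CHIR99021 at 3 µM and PD0325901 before cycles of adding and withdrawing CH, PD and LIF, so that the group label alone tells the medium. The series text names zero passage, 1 month and 2 months of culture. PO was read as zero passage because it occurs in 2i+LIF alone, and LP and HP are used as named. No label says that replicates were separate cultures, so every p-value measures the spread between these libraries, which may be technical.

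Dppa2 and Dppa4 encode partner proteins with a SAP domain that bind DNA as a complex. They are known for holding developmental promoters in a poised state and for acting upstream of Dux and the genes of 2-cell-like cells. Dppa3 (also called Stella or PGC7) binds Uhrf1 and so limits the copying of DNA methylation; it marks germ cells, oocytes and naive stem cells. Dppa5a (also called Esg1) encodes an RNA-binding protein with a KH domain, and its close relatives are mostly known from oocytes.

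Libraries held 1132126 to 3783043 gene counts. Within their groups, 2 libraries were unlike the others, namely 2i+LIF PO replicate 1 with 39.1% mitochondrial counts and 2i+LIF LP replicate 1 with 31.7% of counts in Gm42418. By their file names the PO libraries were sequenced in another run than the other 18, so run and PO cannot be told apart. Markers of embryonic stem cells were present in every group, with summed levels of 735 to 2146 CPM (counts scaled to library size and composition) over 6 genes. Dusp6, a target of ERK that falls under MEK inhibition, went against some labels. It had 0 to 1.23 CPM in the libraries labelled LIF HP, which name no MEK inhibitor, and 34.4 and 26.3 CPM in 2i+LIF LP replicates 2 and 3, which do. It had 0.701 CPM in 2i+LIF LP replicate 1, 2.24 to 4.91 CPM in the libraries labelled 2i+LIF PO and 2i+LIF HP, and 15.3 to 47.1 CPM in all others. Etv4, another ERK target, was high in all 3 libraries labelled 2i+LIF LP, at 135.3, 168.8 and 161 CPM, so that replicate 1 was low in 1 of these ERK targets and high in the other. It had 4.49 to 6.54 CPM in PO, 5.15 to 14.2 CPM in LIF HP and 21.8 to 68.8 CPM in 2i+LIF HP. Axin2, a Wnt target that rises under GSK3 inhibition, went with the labels in part. It had 48.8 to 73.6 CPM in 2i+LIF HP, but 4.77 to 6.49 CPM in CH+LIF HP, below or within the 6.18 to 12.4 CPM of LIF HP, which names no GSK3 inhibitor. At LP it averaged 14.9 CPM with 2i+LIF (1.68 to 28.8), 5.16 CPM with CH+LIF (0 to 10.6) and 0.763 CPM with LIF, and PO had 5.23 to 14.8 CPM. Group names below are therefore labels only, and every direction is that of the libraries so labelled.

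Each of the 4 genes differed among the 7 groups in edgeR's quasi-likelihood test, as did 22.6% of the 10643 genes tested. The adjusted p was 0.00421 for Dppa2, 0.0177 for Dppa4, 2.18e-06 for Dppa3 and 0.000917 for Dppa5a. In 15 contrasts between pairs of groups the 4 genes gave 60 tests, of which 16 had an adjusted p under 0.05. Of these, 12 were contrasts against PO. Dppa3 passed the filter only through the group in which it was high, so it had to differ. The share of all genes called in either direction against PO was 5.06% in 2i+LIF LP, 8.31% in CH+LIF LP, 12% in LIF LP, 10.6% in 2i+LIF HP, 5.82% in CH+LIF HP and 12.3% in LIF HP.

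The 3 media at LP gave no call of a Dppa gene by edgeR in pairs or jointly, and 1 of the 12 tests in pairs had an unadjusted p under 0.05, that of Dppa3 in LIF LP against 2i+LIF LP, with no counts in LIF LP. DESeq2 called none in pairs either. With no filter on low counts, edgeR called Dppa3 in LIF LP against 2i+LIF LP (adjusted p = 0.0313). In the fit of all 21 libraries, genes were called at 0% for CH+LIF LP against 2i+LIF LP, at 0.489% for LIF LP against 2i+LIF LP (0.113% higher, 0.376% lower) and at 0.047% for LIF LP against CH+LIF LP (0.0094% higher, 0.0376% lower). Without the libraries labelled 2i+LIF LP in which Dusp6 was high, the 1 library left there is replicate 1, which stood apart, and its spread is assumed from the other groups, here and wherever this setting is named. The Dppa genes were then called in pairs at LP, as were many other genes, and the filter on low counts was applied anew in this fit. Between HP and LP no Dppa gene was called in CH+LIF, where 0.0094% of all genes were (0.0094% higher), or in LIF, where 9.96% were (5.33% higher, 4.63% lower). Nor was any in LIF HP against CH+LIF HP, where 1.47% of genes were called (0.592% higher, 0.874% lower). In these 3 contrasts DESeq2 called none of the 4 genes, and 4 of 12 edgeR tests had an unadjusted p under 0.05, of Dppa3, Dppa4 and Dppa5a in LIF HP against LIF LP and of Dppa4 in LIF HP against CH+LIF HP. Other settings did call genes there. In LIF HP against LIF LP, a fit of the compared groups alone called Dppa2 (adjusted p = 0.029), Dppa4 (0.0162) and Dppa5a (0.000613), limma-voom called Dppa4 (0.0447) and Dppa5a (0.00128), and edgeR with no filter called Dppa3 (0.0123) and Dppa5a (9.36e-06). Leaving out both libraries that stood apart called Dppa4 (0.0481) and Dppa5a (0.00756), a replicate block called Dppa5a (0.0435), leaving out the libraries labelled 2i+LIF LP with high Dusp6 called Dppa5a (0.0256), and a short-transcript covariate, described below, called Dppa2 (0.0303). In LIF HP against CH+LIF HP, the fit of the compared groups called Dppa4 (0.0215) and Dppa5a (0.00474), limma-voom called Dppa4 (0.0414), no filter called Dppa5a (0.0229), and leaving out both libraries that stood apart called Dppa4 (0.044). The genes did not peak together: Dppa2 was highest in LIF LP, Dppa4 in CH+LIF HP, Dppa3 in 2i+LIF HP and Dppa5a in 2i+LIF PO.

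**Figure D1:**
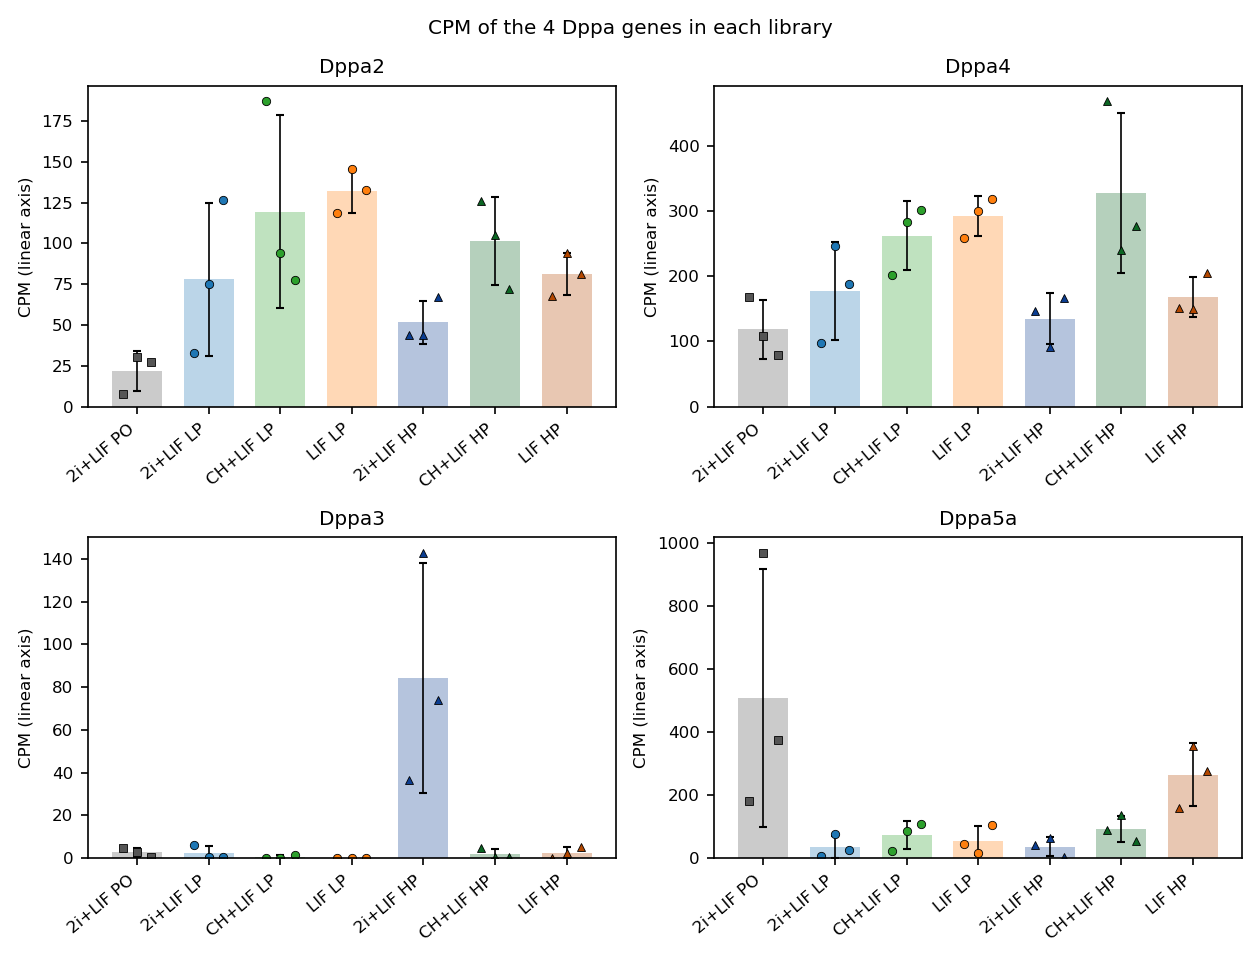
CPM (linear axis from 0) of each Dppa gene in the 7 groups; points are libraries, bars are means and error bars are SD over 3 libraries. Dppa3 stands at 36.7 to 142.8 CPM in 2i+LIF HP and at 6.31 CPM or less in all other libraries, whereas the mean of Dppa5a is highest in 2i+LIF PO.

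Levels of the 4 genes were set side by side per kilobase of merged exons. Dppa5a reached 822 ± 663 CPM per kb (SD, n = 3) in 2i+LIF PO, the highest group mean of the family on this scale. The highest group means of the others were 197 ± 73.7 CPM per kb for Dppa4 in CH+LIF HP, 94.7 ± 60.4 for Dppa3 in 2i+LIF HP and 54.0 ± 5.52 for Dppa2 in LIF LP. The sources used here do not say whether reads covered whole transcripts, and these levels assume that they did. Between the group means of its CPM, Dppa5a spanned 14.0-fold, Dppa2 5.99-fold and Dppa4 2.77-fold; Dppa3 had a group with no counts and has no such span. The Dppa5a span depended on single libraries and was 7.67-fold without 2i+LIF PO replicate 2, 30.2-fold without 2i+LIF LP replicate 2 and 22.5-fold without 2i+LIF HP replicate 2.

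Dppa2 (ENSMUSG00000072419, chromosome 16, 48303908 to 48319723 on the plus strand of GRCm38, as for every position below) was lowest before extended culture. The 2i+LIF PO libraries had 7.91, 30.6 and 27.7 CPM of it, and LIF LP had 118, 145.4 and 133 CPM. All 18 libraries of the other groups lay above the highest PO library, the nearest being 2i+LIF LP replicate 1 at 33.0 CPM. Such a separation from PO was frequent, since 18.7 to 32.5% of all genes tested did not overlap between PO and each of the 6 groups.

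The other groups of Dppa2 formed a continuous series of overlapping values. After LIF LP (132 ± 13.5 CPM) came CH+LIF LP with 187, 93.8 and 77.5 CPM, CH+LIF HP with 126, 105 and 72.4 CPM, and LIF HP with 68.0, 94.2 and 81.4 CPM. The 2i+LIF LP libraries were spread from 33.0 to 126 CPM, and 2i+LIF HP had 44.2, 43.6 and 67.1 CPM. Every neighbouring pair in this order overlapped and differed by less than the larger SD, except that 2i+LIF HP lay clear of PO.

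Dppa2 was called higher than in PO in 5 of 6 groups by edgeR's quasi-likelihood test. Its log2 fold change was 2.55 (SE 0.46, adjusted p = 0.000847) in LIF LP, where 5.84% of all genes were called higher, and 2.41 (SE 0.46, adjusted p = 0.0023) in CH+LIF LP, where 4.24% were. It was 2.17 (SE 0.46, adjusted p = 0.00677) in CH+LIF HP, against 3.36% of all genes. In LIF HP it was 1.85 (SE 0.46, adjusted p = 0.011), against 7.1%, and in 2i+LIF LP it was 1.80 (SE 0.46, adjusted p = 0.0227), against 2.79%. In 2i+LIF HP, where 5.8% of genes were called higher, the value was 1.19 (SE 0.46) and missed the threshold with an adjusted p of 0.0933. The PO group itself holds 1 library with few Dppa2 counts, 15 in replicate 1 against 117 and 111 in the others. The LIF HP call was lost without that library (adjusted p = 0.0501) or without LIF HP replicate 2 (0.0539), and the 2i+LIF LP call without 2i+LIF LP replicate 3 (0.114), in a fit of these groups alone (0.355) and without the libraries labelled 2i+LIF LP in which Dusp6 was high (log2 fold change 0.58, adjusted p = 0.509).

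Dppa4 (ENSMUSG00000058550, chromosome 16, 48283733 to 48294237, plus strand) lies 9.67 kb before Dppa2 on the same strand. It was the most evenly expressed of the family: no library fell below 78.8 CPM, and its biological coefficient of variation was 0.322, against 0.372 for Dppa2, 0.617 for Dppa5a and 0.667 for Dppa3. Its PO libraries had 168, 109 and 78.8 CPM, those of LIF LP 258, 299 and 318 CPM, and those of CH+LIF HP 468, 239 and 276 CPM. LIF LP and CH+LIF HP lay wholly above PO, as did CH+LIF LP with 202, 283 and 301 CPM.

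The other 3 groups of Dppa4 overlapped PO. Those of 2i+LIF LP had 97.5, 247 and 188 CPM, those of LIF HP 150.5, 150.3 and 204 CPM, and those of 2i+LIF HP 146.4, 91.6 and 167 CPM. CH+LIF LP exceeded 2i+LIF LP by 84.7 CPM, more than the larger SD of 75.2 CPM though the libraries overlapped, and the other neighbours in the order of means did not differ beyond theirs.

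Dppa4 was called higher than in PO in 2 of 6 groups by edgeR's quasi-likelihood test. The log2 fold change was 1.47 (SE 0.38, adjusted p = 0.0206) in CH+LIF HP, where 3.36% of all genes were called higher, and 1.30 (SE 0.38, adjusted p = 0.0235) in LIF LP, where 5.84% were. In CH+LIF LP it was 1.15 (SE 0.37, adjusted p = 0.0561). At HP, Dppa4 had a log2 fold change of 1.28 (SE 0.38, adjusted p = 0.0824) in CH+LIF against 2i+LIF, a contrast in which 2.02% of all genes were called and 1.1% called higher. Of 11 other settings 4 called this contrast, namely DESeq2 (adjusted p = 0.0281), limma-voom (0.0117), leaving out both libraries that stood apart (0.00874) and leaving out the libraries labelled 2i+LIF LP with high Dusp6 (0.0431). Both calls against PO rested on single libraries. The LIF LP call was lost without 2i+LIF PO replicate 2 (adjusted p = 0.0702) or 3 (0.106), LIF LP replicate 2 (0.0716) or 3 (0.0712), and the CH+LIF HP call without 2i+LIF PO replicate 2 (0.0621) or 3 (0.0988) or CH+LIF HP replicate 1 (0.154). In fits of the compared groups alone they had adjusted p of 0.0545 and 0.0715. With both libraries that stood apart left out, 7 contrasts of Dppa4 were called in place of 2, and the log2 fold changes were 1.64 (adjusted p = 0.00124) in LIF LP and 1.79 (adjusted p = 0.00128) in CH+LIF HP.

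**Figure D2:**
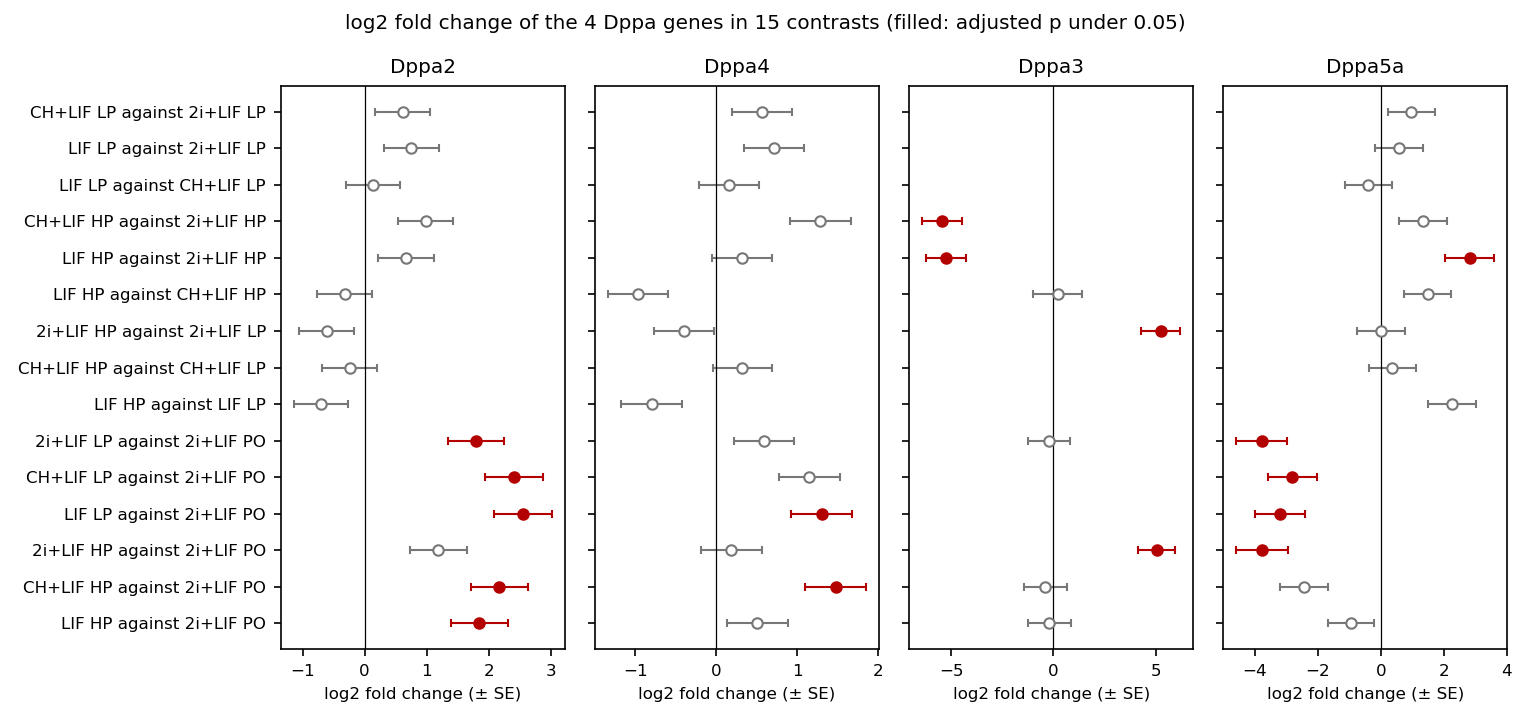
Each panel shows 1 gene, with the log2 fold change (horizontal axis) and its SE in the 15 contrasts between groups; filled red points had an adjusted p under 0.05 (edgeR). Contrasts of Dppa3 with LIF LP or CH+LIF LP are left out because these groups had 0 and 2 counts. Dppa2 and Dppa5a lie on opposite sides of 0 in all 6 contrasts against PO, which share the same PO libraries.

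Because Dppa2 and Dppa4 act as partners, the ratio of Dppa4 to Dppa2 counts was followed across libraries, where sequencing depth cancels. The ratio is not scaled for exon length (1662 and 2447 bases), so it is compared between libraries and not read as a level of 1 gene over the other. It was 1.08 to 3.89 in 20 libraries and 21.2 in 2i+LIF PO replicate 1, the library with 39.1% mitochondrial counts. As geometric means it ran from 2.07 in LIF HP, 2.21 in LIF LP, 2.33 in CH+LIF LP, 2.44 in 2i+LIF LP and 2.59 in 2i+LIF HP to 3.18 in CH+LIF HP and 5.99 in 2i+LIF PO. Apart from that library, PO had ratios of 3.56 and 2.85, inside the range of the other groups.

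**Figure D3:**
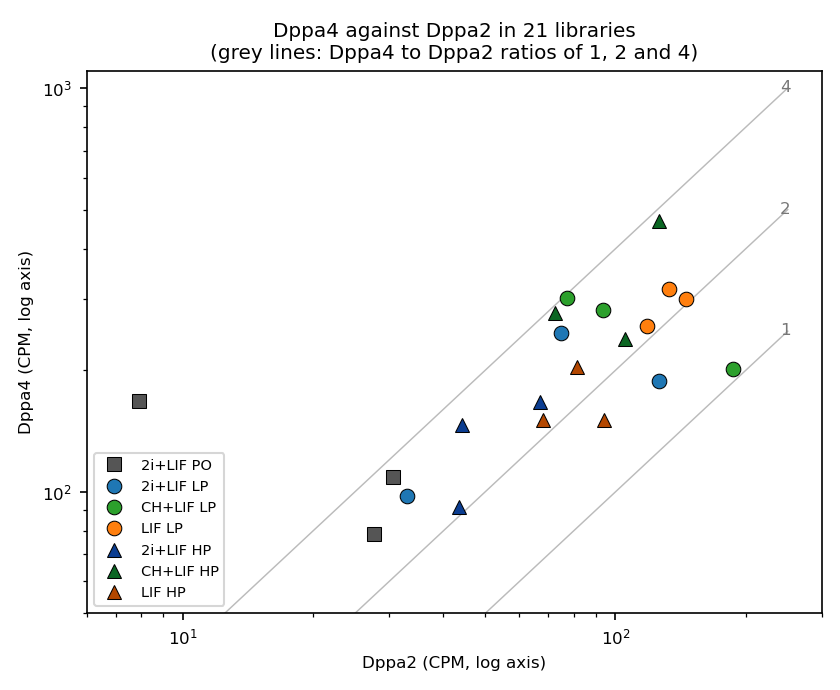
Dppa4 against Dppa2 in CPM on log axes, 1 point per library, with grey lines at ratios of 1, 2 and 4. All libraries but 2i+LIF PO replicate 1, at a ratio of 21.2, lie between 1.08 and 3.89.

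The group means of the partners were correlated, and with all 21 libraries kept their replicates were not. Single steps could differ: from CH+LIF LP to CH+LIF HP the log2 fold change was -0.24 for Dppa2 and 0.32 for Dppa4, neither called. Over 21 libraries Pearson's r of log2 CPM between Dppa2 and Dppa4 was 0.63 and Spearman's rho 0.69. Over the 7 group means r was 0.87, and for deviations from the group means it was 0.037. The deviations include 2i+LIF PO replicate 1, the library with a ratio of 21.2. Without both libraries that stood apart, r over the remaining libraries was 0.76. These points share library and depth, and Dppa4 ranked 592 among the 10642 other genes by its r to Dppa2. Dppa3 and Dppa5a had r between -0.43 and -0.13 with both partners and -0.23 with each other.

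The genes whose pattern over the 21 libraries was most like that of Dppa2, among 7753 with a mean of at least 10 CPM, were H2afz (r = 0.91), Sgo1 (0.91), Cyp51 (0.91), Trib3 (0.90) and Nfyb (0.90). H2afz encodes the histone variant H2A.Z, and Sgo1 protects the cohesion of sister chromatids. For Dppa4 they were Hist2h2ac (0.82), Id1 (0.81), Nars (0.81), Chrna9 (0.80) and Apela (0.80). Id1, a target of BMP signalling, averaged 6.24 CPM in PO and between 15.4 and 15.8 CPM in 2i+LIF HP and LIF HP. Its other group means were 70.7 to 88.2 CPM, with the highest in CH+LIF LP and not in CH+LIF HP, where Dppa4 was highest.

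Of 25 genes of the 2-cell-like state that act downstream of Dppa2, Dppa4 and Dux, 23 were in the tables and 2 were tested, Gm21761 and Pramef12. Duxf3, which encodes Dux, had 1 count in all 21 libraries. The number of the 23 genes without any count was 17 in 2i+LIF PO and CH+LIF LP, 13 in 2i+LIF LP, LIF LP and LIF HP, 10 in CH+LIF HP and 6 in 2i+LIF HP. Zscan4c, a marker of that state, had 13 counts in 2i+LIF HP and 0 to 2 in each other group. Zscan4d, of the same family, had 10 counts in 2i+LIF HP, 7 in LIF LP and 3 in both CH+LIF HP and LIF HP. Zscan4b, Zscan4e and Zscan4f had no counts in any group. Gm21761 was called higher than in PO in 4 of 6 groups and had 17.7, 10.9 and 10.5 CPM in 2i+LIF HP. Pramef12 was called lower there than in PO (log2 fold change -1.36, SE 0.37, adjusted p = 0.0184 by edgeR), so the 2 tested genes went in opposite directions, in a contrast with 5.8% of all genes called higher and 4.79% lower. These genes belong to families with near-identical copies, so their counts are uncertain, and 2 of 25 tested genes do not describe the list.

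Morc1, a gene active in germ cells and the only other tested protein-coding gene within 250 kb of Dppa2 and Dppa4, did not share their order. It was lowest in 2i+LIF HP at 34.9 ± 9.63 CPM and highest in LIF HP at 128 ± 36.1 CPM, and had 106 ± 17.1 CPM in PO, where both partners were low.

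Dppa3 (ENSMUSG00000046323, chromosome 6, 122626410 to 122630272, plus strand) was a gene of a single group. It had 79, 262 and 77 counts in the libraries of 2i+LIF HP, which is 418 of its 471 counts in all. These counts were 36.7, 142.8 and 73.8 CPM. The remaining 18 libraries had 0 to 11 counts, and 6 of them had none.

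Outside 2i+LIF HP the levels were near what a few counts give. PO had 4.75, 2.88 and 0.499 CPM, 2i+LIF LP had 6.31, 0.431 and 0.559 CPM, and CH+LIF HP had 4.54, 0.477 and 0.762 CPM. LIF HP had 0, 2.46 and 5.15 CPM, CH+LIF LP had 2 counts in 1 library, and LIF LP had no count in any. These 6 groups overlapped and their order is not resolved at this depth. The highest of these libraries in CPM, 2i+LIF LP replicate 1 with 9 counts, was the 1 library of its group with low Dusp6. CH+LIF HP replicate 1, at 4.54 CPM, came from a group with 30.5 to 40.5 CPM of Dusp6. LIF HP replicate 1, from a group with low Dusp6, had no count of Dppa3.

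Ratios were taken over pooled counts scaled by library totals alone, not by composition as CPM are. On this scale the Dppa3 level of 2i+LIF HP was 41.2 times that of 2i+LIF PO (exact 95% interval of counting error 26.9 to 66.5). The mean CPM of these groups were 84.4 and 2.71. The level of 2i+LIF HP was 45.1 times that of 2i+LIF LP (25 to 91.1). It was 47.9 times that of CH+LIF HP (25 to 106) and 54.1 times that of LIF HP (28.2 to 119). Against the 2 counts of CH+LIF LP the ratio was 213 (58.5 to 1762). Against LIF LP it was at least 140.9-fold higher, taking 3 counts over the group as what a count of 0 allows. Single libraries weigh on these ratios: 9 of the 11 counts of 2i+LIF LP were in replicate 1 and 262 of the 418 counts of 2i+LIF HP in replicate 2. The fitted log2 fold change between these groups, 5.25, was 7.28 without the former library and 4.61 without the latter. In CH+LIF HP, 7 of the 9 counts were in replicate 1. The log2 fold change of CH+LIF HP against 2i+LIF HP was -7.01 to -4.82 with single libraries of these groups left out. The intervals cover counting error and not the spread between libraries, which in 2i+LIF HP was 84.4 ± 53.8 CPM (SD, n = 3).

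Dppa3 entered the test only through its counts in 2i+LIF HP, so that the following values describe the size of its difference and are not support for it. By edgeR's quasi-likelihood test, the log2 fold change of 2i+LIF HP was 5.05 (SE 0.90, adjusted p = 0.000947) against PO and 5.25 (SE 0.95, adjusted p = 0.00198) against 2i+LIF LP, a contrast in which 3.67% of all genes were called and 1.63% called higher. Against 2i+LIF HP, the log2 fold change was -5.45 (SE 0.97, adjusted p = 0.00246) in CH+LIF HP, where 0.921% of genes were called lower, and -5.24 (SE 0.97, adjusted p = 0.00263) in LIF HP, where 1.68% were. Without the libraries labelled 2i+LIF LP in which Dusp6 was high, the value against 2i+LIF LP was 3.70 (adjusted p = 0.033), with 1 library left in that group.

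In the joint test of the 3 media at HP, which called 5.12% of all genes, Dppa4 (adjusted p = 0.0671), Dppa5a (0.063) and Dppa2 (0.363) were not called by edgeR's quasi-likelihood test. The outcome for Dppa3 (0.000227) was fixed by its entry through 2i+LIF HP. None of 12 interaction tests of the 4 genes, which ask whether HP against LP differed between media, was called by edgeR, and none by DESeq2. At an unadjusted p under 0.05 there were 2 such tests, of Dppa4 in LIF against CH+LIF (adjusted p = 0.41 by edgeR) and of Dppa5a in LIF against 2i+LIF (0.438). The 3 interactions were called for 0.0188% (0.0188% higher), 0.15% (0.122% higher) and 0.423% of all genes. The rise of Dppa3 in 2i+LIF is thus not shown to differ from its change in the other media, where the LP groups had 0 and 2 counts.

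Dppa3 lies in a cluster of pluripotency genes, and 7 of the 10 protein-coding genes within 250 kb were tested. From 2i+LIF LP to HP none of the 7 was called by edgeR, and 1, Gdf3, had an unadjusted p under 0.05. The log2 fold change was -0.68 (SE 0.31, adjusted p = 0.254) for Gdf3, 16.3 kb away, and 0.24 (SE 0.37, adjusted p = 0.801) for Nanog, a core pluripotency factor 77.2 kb away. It was 0.80 (SE 0.43, adjusted p = 0.35) for Necap1, 0.41 (0.736) for Rimklb, 0.38 (0.635) for Slc2a3, -0.49 (0.772) for Apobec1 and -0.77 (0.556) for Foxj2. The neighbours thus had values in both directions, and none had its highest group mean in 2i+LIF HP: Nanog averaged 449 CPM in PO, against 143.8 CPM at LP and 169 CPM at HP of 2i+LIF.

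Of 11 genes of DNA methylation, the process in which Dppa3 acts, 10 were tested. In 2i+LIF HP against LP 1 was called higher and 2 lower, with a median log2 fold change of -0.92 against 0.01 over all genes tested, where 1.63% were called higher and 2.05% lower. Uhrf2, a relative of the Dppa3 target Uhrf1, had 69.7, 93.8 and 62.3 CPM in 2i+LIF HP and at most 38.0 CPM in any other library; its log2 fold change against 2i+LIF LP was 3.24 (SE 0.45, adjusted p = 0.00013 by edgeR). Dnmt3l, a cofactor of de novo methylation, averaged 6.96 ± 2.86 CPM in 2i+LIF HP against 99.8 ± 71.9 CPM at LP in the same medium, a log2 fold change of -3.80 (SE 0.64, adjusted p = 0.000831 by edgeR). The level at LP lay in replicates 2 and 3, in which Dusp6 was high, at 139.9 and 142.6 CPM, while replicate 1 had 16.8 CPM. Tet2, an oxidase of methylated cytosine, had a log2 fold change of -1.72 (SE 0.49, adjusted p = 0.0464 by edgeR). LIF HP, in which Dppa3 was low, also had little Dnmt3l, at 1.06 ± 1.35 CPM. Uhrf1 itself averaged 130.2 ± 86.9 CPM in 2i+LIF HP, within its group means of 66.6 to 158.4 CPM, and it was not called in any of the 15 contrasts.

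The pattern most like that of Dppa3 was that of D230025D16Rik (r = 0.88 over 21 libraries), followed by Khdc1a (0.87), Cdo1 (0.87), Pdzrn4 (0.85) and Kyat3 (0.85). Khdc1a, a KH-domain gene known from oocytes, had 6.04, 145.5 and 95.8 CPM in 2i+LIF HP, with only 2 counts in the other 18 libraries together. Replicate 1 had the lowest Dppa3 and the lowest Khdc1a of the group. Within groups r fell to 0.37 for Khdc1a and to 0.58 for D230025D16Rik, so that the likeness lay mostly in the step to 2i+LIF HP. Dppa3 was at or near 0 in most libraries, which leaves little else for these values to share.

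**Figure D4:**
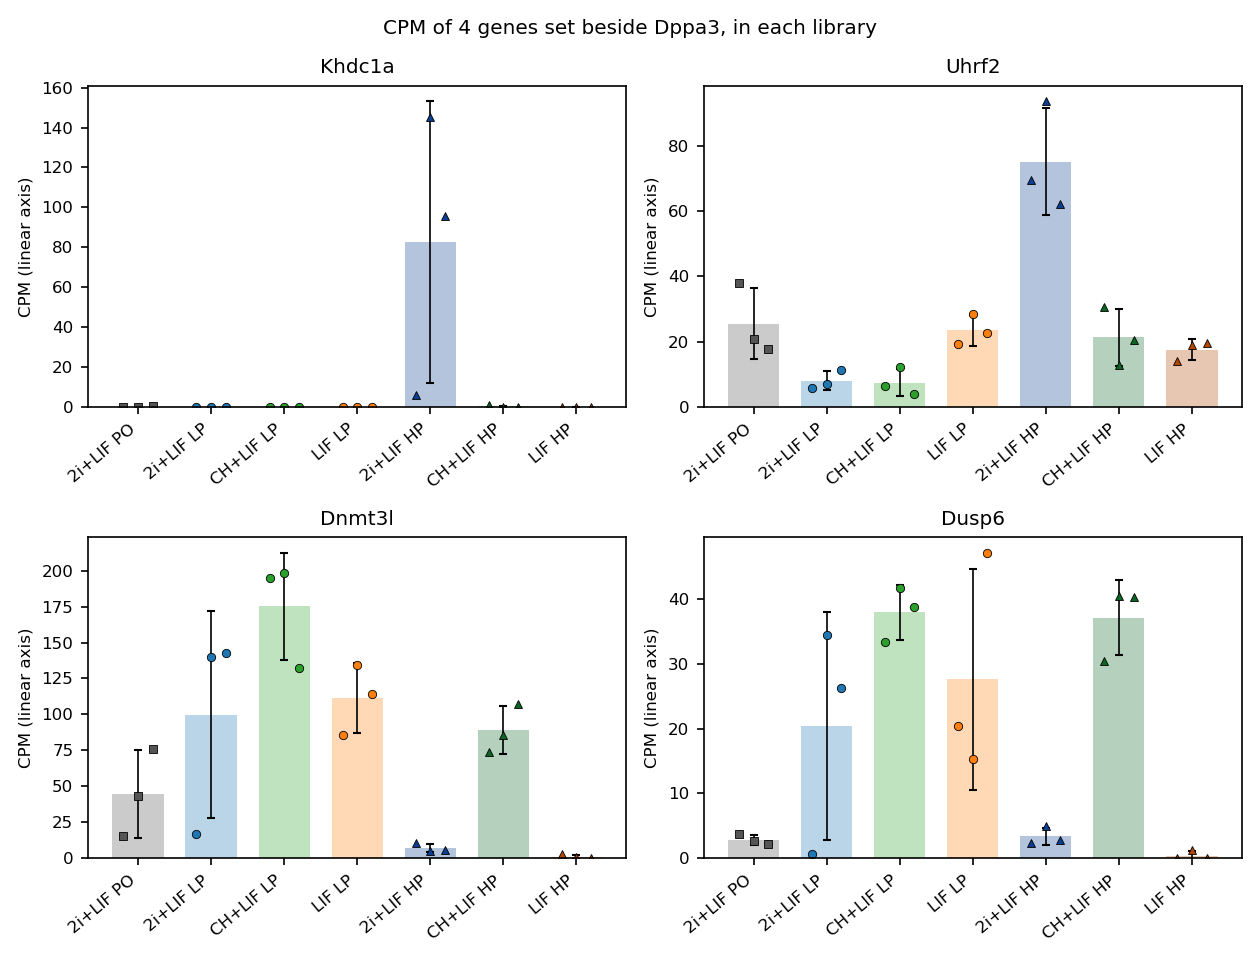
CPM (linear axis from 0) of Khdc1a, Uhrf2, Dnmt3l and Dusp6 in the 7 groups, with points for libraries, bars for means and error bars for SD over 3 libraries. Khdc1a and Uhrf2 are highest in 2i+LIF HP, as Dppa3 is, while Dnmt3l is low in both 2i+LIF HP and LIF HP, and Dusp6 separates 2i+LIF LP replicate 1 from replicates 2 and 3.

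Markers of other cell types were measured in the same libraries. The summed level of 5 mesendoderm markers in 2i+LIF HP was 20.0 to 48.0 CPM, against 0 to 17.2 CPM in the other groups, and all 5 had counts. T, the defining gene of early mesoderm, made up 22.4 CPM of it on average. The 7 primitive endoderm markers summed to 4.18 to 24.5 CPM in 2i+LIF HP, with Gata4 and Sox7 at 0, against 0.649 to 8.39 CPM elsewhere. The 5 primordial germ cell markers, of cells in which Dppa3 is typically high, summed to 78.6 to 98.5 CPM in 2i+LIF HP with none at 0, against 56.4 to 187 CPM elsewhere. From 2i+LIF LP to HP, Nanos3, a germ cell regulator, was called higher (log2 fold change 2.92, SE 0.78, adjusted p = 0.0329 by edgeR), and Prdm1, a germ cell specifier, lower (-1.83, SE 0.43, adjusted p = 0.015).

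The 6 trophectoderm markers summed to 77.6 to 107 CPM in 2i+LIF HP and 33.9 to 173 CPM elsewhere, with Elf5 at 0 in every group. Krt7, an epithelial keratin, had 1.86 to 35.5 CPM in 2i+LIF HP and group means of 0 to 6.17 CPM elsewhere, and Cdx2, the defining factor of the lineage, had 6.71 to 21.4 CPM against means of 0 to 1.30 CPM. Both were at or near 0 in most other groups, so these levels are a description with no test. Tfap2c, a factor shared with germ cells, averaged 51.6 ± 23.5 CPM in 2i+LIF HP, within its other group means of 33.0 to 142.1 CPM. It was called lower there than in LIF HP (LIF HP minus 2i+LIF HP, log2 fold change 1.45, SE 0.38, adjusted p = 0.0331 by edgeR). Krt7 and Cdx2 had no counts in CH+LIF HP. Stem cell markers summed to 735 to 1119 CPM in 2i+LIF HP and to 1082 to 2146 CPM in the other groups. The part of these cells in the Dppa3 level was not tested. In bulk RNA, fewer cells of a type and less RNA per cell cannot be told apart.

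Dppa5a (ENSMUSG00000060461, chromosome 9, 78367052 to 78368177, minus strand) was the most abundant member in PO. Its PO libraries had 181, 969 and 376 CPM, and those of LIF HP, at 159, 357 and 277 CPM, overlapped them. All other libraries had 4.79 to 136 CPM and lay below both groups. CH+LIF HP had 90.2, 136 and 54.1 CPM, CH+LIF LP 23.7, 87.8 and 108 CPM, and LIF LP 43.5, 15.9 and 105 CPM. Under 2i+LIF the values were 6.31, 75.3 and 27.4 CPM at LP, and 40.4, 63.8 and 4.79 CPM at HP. The spread within groups was wide: 2i+LIF HP ran from 5 to 117 counts. LIF HP lay clear of CH+LIF HP, and all later neighbours in the order of means overlapped.

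Dppa5a was called lower than in PO in 4 of 6 groups by edgeR's quasi-likelihood test. The log2 fold change was -3.78 (SE 0.81, adjusted p = 0.00933) in 2i+LIF LP, where 2.27% of all genes were called lower, and -3.77 (SE 0.82, adjusted p = 0.00412) in 2i+LIF HP, where 4.79% were. It was -3.20 (SE 0.79, adjusted p = 0.00948) in LIF LP, against 6.11% of genes, and -2.81 (SE 0.78, adjusted p = 0.0262) in CH+LIF LP, against 4.07%. In CH+LIF HP the value was -2.44 (SE 0.77, adjusted p = 0.057) and in LIF HP -0.95 (SE 0.73, adjusted p = 0.414), in contrasts where 2.45% and 5.17% of genes were called lower. The call in CH+LIF LP was lost without 2i+LIF PO replicate 2 (adjusted p = 0.118) or CH+LIF LP replicate 1 (0.126) or 2 (0.0746), that in LIF LP without 2i+LIF PO replicate 2 (0.0571) or LIF LP replicate 2 (0.0654), and that in 2i+LIF LP in a fit of these groups alone (0.242). Without both libraries labelled 2i+LIF LP in which Dusp6 was high, the value in 2i+LIF LP was -6.29 (adjusted p = 0.00442).

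Among the 3 contrasts of media at HP, Dppa5a was called in 1, although the joint test of the media did not call it. LIF HP exceeded 2i+LIF HP by a log2 fold change of 2.83 (SE 0.79, adjusted p = 0.0419 by edgeR), in a contrast where 3.78% of all genes were called, 2.1% were called higher and the libraries of the groups did not overlap. Non-overlap held for 28% of all genes there. Against LIF LP the libraries of LIF HP were also all higher, as 39.3% of genes did not overlap, with a log2 fold change of 2.26 (SE 0.77, adjusted p = 0.0588 by edgeR). With the replicate number as a block, this value was 2.04 (adjusted p = 0.0435) and that of CH+LIF HP against PO was -2.18 (adjusted p = 0.0437). The call against 2i+LIF HP was lost without 2i+LIF HP replicate 1 (adjusted p = 0.1), 2 (0.0564) or 3 (0.149) or LIF HP replicate 2 (0.148) or 3 (0.11). It was also lost without CH+LIF LP replicate 2 (0.0535), LIF LP replicate 1 (0.0508) or CH+LIF HP replicate 1 (0.0527). These libraries are in neither compared group and enter through the shared filter, scaling, estimate of spread and adjustment.

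The genes whose pattern was most like that of Dppa5a were Rpl7a (r = 0.96 over 21 libraries), Ndufb3 (0.96), Cox7c (0.95), Rpl11 (0.93) and Tspan14 (0.93). Rpl7a and Rpl11 are ribosomal proteins, and Ndufb3 and Cox7c are subunits of the respiratory chain. The likeness held for replicates too, with r of 0.96 within groups for Rpl7a, Ndufb3 and Cox7c, and 0.92 for Rpl11. Across 78 cytosolic ribosomal protein genes the median r with Dppa5a was 0.58, and 73 were above 0. Over 74 nuclear respiratory chain genes the median was 0.39, and over all 10642 other genes it was 0.04. These families were chosen after the likest genes were seen, many ribosomal protein genes have processed pseudogenes that make unique counts uncertain, and all points share libraries.

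Dppa5a has a short transcript of 619 bases, as most ribosomal protein genes have short ones. A short-transcript level was taken per library as the median deviation of log2 CPM over 1246 genes with transcripts of at most 800 bases. It ran from -0.65 in 2i+LIF LP replicate 1 to 0.55 in LIF HP replicate 2, and the 3 LIF HP libraries were the highest of all at 0.27, 0.55 and 0.46. Its r with Dppa5a was 0.54 over 21 libraries and 0.70 within groups. For Dppa2 these were 0.44 and 0.67, for Dppa4 0.23 and 0.27, and for Dppa3 -0.07 and -0.14. The transcripts of these genes had 2197.5, 1375 and 762 bases, so that of Dppa3 was also under 800 bases.

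With the short-transcript level as a covariate in edgeR, the change of Dppa5a in LIF HP against 2i+LIF HP was 0.72 on the log2 scale (adjusted p = 0.6), and that in LIF HP against LIF LP was 0.10 (adjusted p = 0.945). The falls from PO remained called, with -3.57 in 2i+LIF LP (adjusted p = 9.4e-05), -3.55 in CH+LIF LP (6.83e-05), -3.38 in LIF LP (4.04e-05) and -4.00 in 2i+LIF HP (1.01e-05). With it, CH+LIF HP (-3.40, adjusted p = 0.000233) and LIF HP (adjusted p = 0.00382) were called lower as well. For Dppa2 the log2 fold change of LIF HP against PO was 0.90 (adjusted p = 0.279) with the covariate, while LIF HP against LIF LP (0.0303) and 2i+LIF HP against PO (0.0402) became called. All 4 calls of Dppa3 and both calls of Dppa4 held. Because the level was highest in all 3 LIF HP libraries, it and this group cannot be fully told apart, and its part in the Dppa5a level of LIF HP was otherwise not tested.

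**Figure D5:**
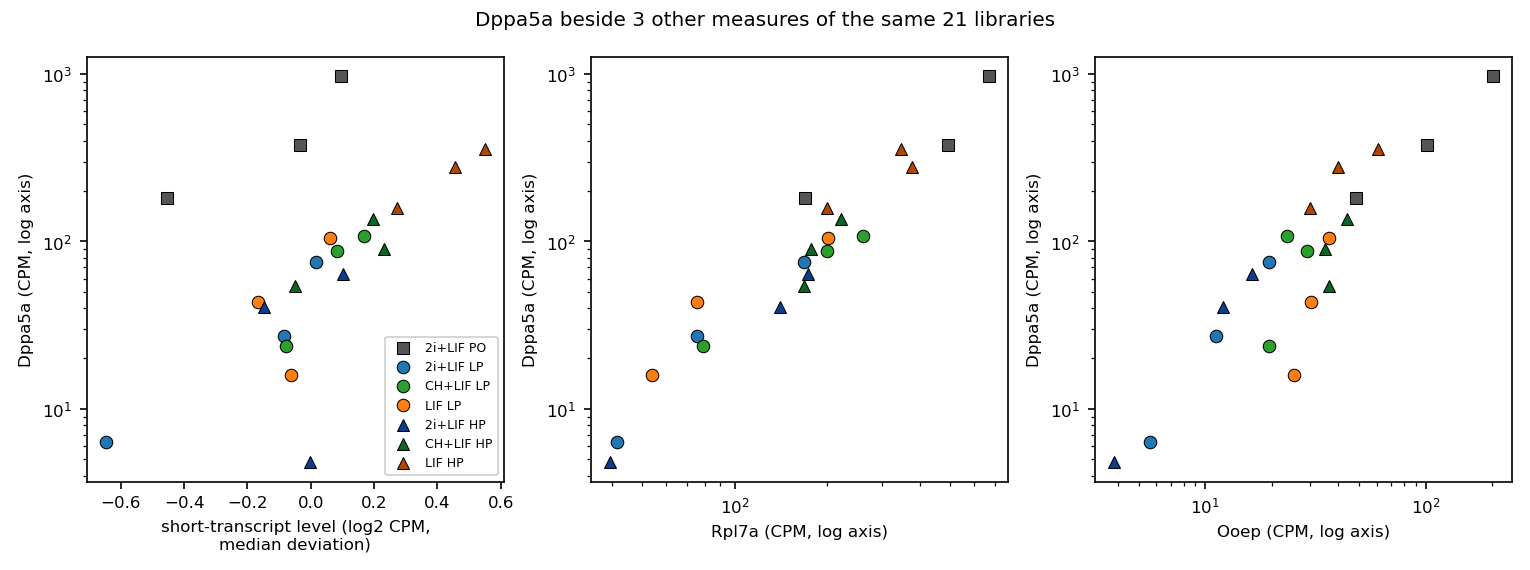
Dppa5a (CPM, log axis) against the short-transcript level, Rpl7a and Ooep (both in CPM on log axes), 1 point per library. The 3 PO libraries lie above other libraries at a like short-transcript level, whereas Rpl7a follows Dppa5a across all groups.

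Ooep, a KH-domain relative that belongs to a maternal complex of the oocyte, lies 7.93 kb from Dppa5a and had a similar order of groups. PO had 48.5, 202 and 102 CPM of it, LIF HP 29.9, 61.0 and 40.2 CPM, and 2i+LIF HP 12.1, 16.4 and 3.83 CPM. By edgeR it was called lower than in PO in all 6 groups, from -1.43 (SE 0.46, adjusted p = 0.042) in LIF HP to -3.39 (SE 0.51, adjusted p = 0.000135) in 2i+LIF HP. LIF HP exceeded 2i+LIF HP by a log2 fold change of 1.96 (SE 0.50, adjusted p = 0.027).

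Of 7 KH-domain relatives 5 were in the tables and 3 were tested, Ooep, Khdc3 and Khdc1a. Between 2i+LIF HP and PO, where 5.8% of all genes were called higher and 4.79% lower, Ooep and Khdc3 were called lower. Khdc1a was called higher, which follows from its near absence outside 2i+LIF HP, the group through which it entered the test. Khdc3, the median of the 3 at -2.23 on the log2 scale, averaged 7.19 ± 2.59 CPM in PO and 1.35 ± 1.18 CPM in 2i+LIF HP. Among other neighbours of Dppa5a, Gsta4 was highest in LIF HP at 722 CPM against 280 to 410 CPM elsewhere, and Eef1a1, an abundant translation factor 110 kb away, had 2130 to 4240 CPM without a called difference among groups (adjusted p = 0.408 by edgeR).

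All 19 listed naive and general pluripotency factors were tested. In 2i+LIF HP against PO 1 was called higher and 9 lower, with a median log2 fold change of -1.17 against -0.09 over all genes, where 5.8% were called higher and 4.79% lower. Against 2i+LIF LP none was called higher and 4 lower (median -0.31), where 1.63% and 2.05% of all genes were, namely Tbx3, Tdgf1, Utf1 and Lin28a. Tdgf1, the Nodal coreceptor Cripto, had 65.5, 10.4 and 33.5 CPM in 2i+LIF HP and 327 to 631 CPM in every other library. The libraries in which Dppa3 was high were thus those in which Tdgf1 was low.

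Of 22 germline genes whose promoters are known to respond to methylation 16 were tested. Against PO, 2 to 5 were called higher in each of the 6 groups, where 2.79 to 7.1% of all genes were, and 2 lower in CH+LIF LP alone, where 4.07% of all genes were. These stood at medians of 0.43 to 1.68 on the log2 scale, while the medians over all genes lay between -0.10 and -0.05. Taf7l, a germ cell subunit of TFIID, had no count in the 3 PO libraries and 4.36 to 90.1 CPM in the other 18, and it lies above these medians also if PO is set to 3 counts over the group. Dazl, an RNA-binding protein of germ cells, had 140, 413 and 182 CPM in 2i+LIF HP, with a log2 fold change of 3.08 (SE 0.54, adjusted p = 0.000633 by edgeR) against PO. Between HP and LP in 2i+LIF, the contrast in which Dppa3 rose, none of the 16 was called by edgeR (median 0.74). Dazl had a log2 fold change of 1.63 there (SE 0.51, adjusted p = 0.0726 by edgeR), and it, Stk31, Taf7l and Tex101 had an unadjusted p under 0.05 among the 6 of these genes looked at singly. In LIF HP against 2i+LIF HP, Stk31 and Tex101 were called lower and none higher, against 1.68% and 2.1% of all genes.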

How the data were processed

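Each library came with a deposited table of raw, whole-number counts over 31053 Ensembl gene IDs. Per the submitters' processing notes, bcl2fastq, STAR 2.6.0a, HTSeq and the mm10 build were used; the strand setting is not given in the sources used here. Symbols and positions came from GENCODE M21 (30934 IDs found). Shares of 16.5 to 38.6% of the 50-base windows of the Dppa transcripts also occur in other genes' transcripts, where unique counting loses reads.

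All 21 libraries entered 1 edgeR 4.0.16 quasi-likelihood fit (R 4.3.3; TMM, filterByExpr, 1 coefficient per group, 14 residual degrees of freedom), with two-sided tests and Benjamini-Hochberg adjustment over 10643 genes in each contrast. SE is the absolute log2 fold change divided by the square root of F. The code was tested on simulated counts. CPM use TMM-scaled totals, log2 CPM a prior count of 2. The members and lists were chosen with earlier results of these data known. Named genes were the members, the 5 likest genes of each, neighbours within 250 kb, and at most 4 called genes per list. Dusp6, Etv4, Axin2, the cell type markers and list genes not called were named in addition, after their values were seen. Same-numbered replicates are not stated to be paired; their deviations correlated at over 0.1 in all 3 pairs in 1 of 15 contrasts, 2i+LIF LP against PO (0.397, 0.345 and 0.179). Alternatives were DESeq2 1.42.0, limma 3.58.1 with voom quality weights, and those named in the closing section.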

Additional observations from a re-analysis of the deposited data

How the results depend on the processing

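None of the called changes of the 4 Dppa genes reversed its direction under any alternative. Other genes were refitted as well, and only counts of their calls are given. The test of Dppa3 is fixed in part by its entry through 2i+LIF HP, so its 4 called changes are not counted here. The other 12 stayed called in 125 of 132 fits with other settings and in 52 of 72 fits that left out 1 library of the compared groups. The test over the 7 groups stayed called for Dppa2, Dppa4 and Dppa5a in every setting. With single libraries left out, its adjusted p by edgeR was 0.000561 to 0.0118 for Dppa2, 0.00507 to 0.0473 for Dppa4 and 0.000219 to 0.00643 for Dppa5a. For Dppa3 this test was fixed by its entry through 2i+LIF HP and is not counted either.

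Counts of called contrasts moved as follows. Dppa4 had 2, and 4 with DESeq2, 8 with limma-voom and quality weights, 7 with both libraries that stood apart left out, 5 without the libraries labelled 2i+LIF LP with high Dusp6, and 0 to 4 with single libraries left out (0 without 2i+LIF PO replicate 2 or 3). Dppa3 had 4, and 7 with no filter on low counts, the added ones all with LIF LP, which had no counts, and 4 to 5 with single libraries left out. Dppa5a had 5, and 8 with no filter and 8 without the libraries labelled 2i+LIF LP with high Dusp6, and 3 to 7 with single libraries left out. Dppa2 had 5, and 7 without the libraries labelled 2i+LIF LP with high Dusp6, where its 2i+LIF LP call was lost and 3 others came in, and 4 to 6 with single libraries left out. In that setting Dppa3 had 6.

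Among media at LP none of the 4 genes was called, jointly, and 1 was with no filter and 1 without the libraries labelled 2i+LIF LP with high Dusp6, a setting that leaves in that group only a library that stood apart and in which all 4 genes were called in pairs. Among media at HP 1 was called, Dppa3, whose outcome was fixed by its entry through 2i+LIF HP. Counts over all 4 genes, Dppa3 among them, were 2 with DESeq2, with no filter, with the replicate block and with the short-transcript covariate. They were 3 with limma-voom and with both libraries that stood apart left out, and 1 to 3 with single libraries left out. Among interactions 0 were called, and 1 with no filter. The cause of these moves was not tested. The number of all genes called moved with them: LIF HP against 2i+LIF HP had 402, and 743 with DESeq2, 1002 with limma-voom, 1427 without both libraries that stood apart and 123 to 786 with single libraries left out. For Dppa2 and Dppa4, r was 0.63, and 0.87 over group means, 0.037 within groups and 0.76 without both libraries that stood apart. The replicate block changed no call but those named above. The settings with high Dusp6 left out and with the short-transcript covariate were chosen after seeing the data. Dppa3 outside 2i+LIF HP is limited by depth, with 0 to 11 counts per library.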
